A study of Mus musculus with 69 samples.

Results

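The subject here is the AP-1 family of transcription factors in mouse bone marrow-derived macrophages (BMDMs) treated with interleukin-4 (IL-4). The 10 genes were taken by symbol from 24537 genes listed for each library. They are Fos, Fosb, Fosl1 and Fosl2 of the FOS family, Jun, Junb and Jund of the JUN family, and Atf3, Batf and Batf3. AP-1 is not a single protein but a dimer of such basic leucine zipper proteins. JUN proteins pair with themselves or with a partner, whereas FOS proteins need a JUN partner to bind DNA. Many of these genes are immediate-early genes, transcribed within minutes of a signal and shut off again soon after. In macrophages AP-1 is among the factors that help the lineage factor PU.1 to open enhancers.

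BMDMs were grown from marrow for 7 days with M-CSF, with IL-4 added at 20 ng/ml where given. The first table holds 29 libraries from young adult female mice of 5 inbred strains, SPRET/EiJ (SPRET), PWK/PhJ (PWK), C57BL/6J (C57), NOD/ShiLtJ (NOD) and BALB/cJ (BALB), untreated (basal) or after 24 hours of IL-4, with 3 libraries per group and 2 for basal PWK. A time course in C57 and SPRET holds 16 libraries, 2 each at 0, 1, 6 and 24 hours. A second time course of the same shape compares Egr2 fl/fl mice (Egr2WT) with LyzM-Cre Egr2 fl/fl mice (Egr2MKO). Both genotypes carry the floxed Egr2 gene, and Cre comes from the LyzM promoter, which is active in myeloid cells. The F1 crosses, C57 x SPRET and C57 x NOD, have 2 libraries at 0 hours and 2 at 24 hours, each split by parental allele. All values are TPM, a level scaled to transcript length and library total, and tests are on log2(TPM + 1). A gene was called when it differed by over 2-fold with an adjusted p under 0.05. This scale understates changes of low genes.

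The 61 libraries of the 3 tested tables held 4.69 to 32.87 M tags. Of the macrophage markers, 7 of 7 were detected in every group of the 5 strains. In basal PWK and in SPRET with IL-4, 1 of the 7 was under 1 TPM in every library, and so was 1 in each SPRET group of the time course. Markers of T cells, B cells, erythroid cells and dendritic cells summed to at most 7.83 TPM for any list, and those of mast cells to at most 21.7 TPM. Neutrophil markers summed to 106 to 130 TPM in basal C57 and to 16.3 to 24.0 TPM after IL-4, and reached 533 to 590 TPM in PWK. Of the 5 neutrophil markers, 3 were under 1 TPM in every library of both C57 groups and of basal PWK. In PWK with IL-4 this held for 2. Fibroblast markers reached 208 TPM in basal PWK, where 3 of the 4 were under 1 TPM in every library. In bulk RNA, fewer cells of a type and less RNA per cell cannot be told apart, and the part of these markers in the results below was not tested.

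Atf3, an ATF-type member induced by stress, ranged from 23.3 to 622 TPM over the 61 libraries. Junb and Jund ranged from 28.2 to 259 TPM and from 25.6 to 196 TPM, and Jun from 16.1 to 158 TPM. Fosl2, which encodes FRA-2, ranged from 4.81 to 61.5 TPM, and Fos from 0.913 to 24.6 TPM. Batf and Batf3, small members without a transactivation domain that act with JUN and IRF proteins, ranged from 8.16 to 40.4 TPM and from 0.787 to 38.9 TPM. Fosb and Fosl1 were nearly silent, at most 0.367 and 0.866 TPM in any library, and entered no test. The other 8 genes passed the filter of at least 1 TPM in at least 2 libraries in all 3 tables, and the counts below refer to these 8.

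Positions are on mm10. Batf3 (chr1:191098414-191108943, plus strand) and Atf3 (chr1:191170297-191183333, minus strand) face each other with 61.4 kb between them. Fos (chr12:85473901-85477270) and Batf (chr12:85686720-85709087), both on the plus strand, are 209.4 kb apart. Fosl2 lies at chr5:32136472-32157839 (plus), Jun at chr4:95049036-95052222 (minus), Junb at chr8:84976909-84978748 (minus) and Jund at chr8:70697739-70700616 (plus). Fosb lies at chr7:19302696-19310045 (minus) and Fosl1 at chr19:5447698-5455938 (plus).

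The 250 bases before the start are shown for 4 genes whose IL-4 responses are described at length below. They come from RefSeq (GRCm38.p6), which held 9 of the 10 genes, and end just before the RefSeq start, which for Fos lies before the start that the files give. They are written 5′ to 3′ on the strand of the gene. Capitals mark a STAT-type palindrome.
Batf3, chr1:191098164-191098413, plus strand: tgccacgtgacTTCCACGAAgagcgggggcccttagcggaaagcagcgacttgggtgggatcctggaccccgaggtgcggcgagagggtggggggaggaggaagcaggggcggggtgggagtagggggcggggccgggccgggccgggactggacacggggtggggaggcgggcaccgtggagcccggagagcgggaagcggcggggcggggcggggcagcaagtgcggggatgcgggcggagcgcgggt
Atf3, chr1:191183334-191183583, minus strand: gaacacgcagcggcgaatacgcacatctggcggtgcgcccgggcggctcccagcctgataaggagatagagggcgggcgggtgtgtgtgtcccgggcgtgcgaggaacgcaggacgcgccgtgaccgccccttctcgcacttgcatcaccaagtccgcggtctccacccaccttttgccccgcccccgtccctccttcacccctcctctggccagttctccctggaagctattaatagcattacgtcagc
Fos, chr12:85473640-85473889, plus strand: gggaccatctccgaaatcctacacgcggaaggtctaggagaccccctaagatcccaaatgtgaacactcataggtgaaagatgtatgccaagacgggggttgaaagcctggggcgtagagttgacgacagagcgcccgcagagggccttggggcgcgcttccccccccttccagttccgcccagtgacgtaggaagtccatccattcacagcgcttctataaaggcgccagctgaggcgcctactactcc
Fosl2, chr5:32136222-32136471, plus strand: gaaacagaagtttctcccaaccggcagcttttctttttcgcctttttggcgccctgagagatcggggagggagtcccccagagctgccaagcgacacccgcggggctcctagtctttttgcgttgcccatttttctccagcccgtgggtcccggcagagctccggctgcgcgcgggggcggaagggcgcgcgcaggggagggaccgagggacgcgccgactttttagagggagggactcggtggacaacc
The promoters of the 9 genes were searched on both strands for TTCNNNGAA (a STAT palindrome, in 7.02% of 32851 promoters), TTCNNNNGAA (the STAT6 spacing, 5.85%), TGANTCA (AP-1, 6.75%), TGACGTCA (the cyclic AMP response element, 1.55%), GCGTGGGCG (EGR, 0.536%) and the CArG box of serum response factor (1.47%). The search found 1 match among the 9 genes, TTCCACGAA at bases -239 to -231 of the Batf3 promoter. A match describes letters and is not evidence of binding.

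The AP-1 genes called after 24 hours of IL-4 differed by strain, with Batf3 called in C57, BALB, PWK and SPRET. In C57, 4 of 8 genes were called, all higher, against 3.80% of all genes. They were Fos, Fosl2, Batf and Batf3. In BALB, 4 of 8 were called higher, against 2.08% of all genes, namely Jun, Junb, Jund and Batf3. In SPRET, 3 of 8 were called (background 3.94%), with Atf3 and Batf3 higher and Fos lower. PWK had 1 of 8, Batf3 (background 2.08%), and NOD had 0 of 8 (background 1.19%), although 3 of 8 NOD genes had an unadjusted p under 0.05. The median log2 change of the 8 genes was -0.10 in NOD, 0.10 in SPRET, 0.38 in PWK, 0.80 in BALB and 0.92 in C57. The medians of all genes were 0.12, 0.11, 0.08, -0.11 and -0.04 in the same order. Adjusted p-values throughout are from limma with Benjamini-Hochberg adjustment over all genes tested. In the strain table, leaving out a replicate number removed that library from every group.

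**Figure D1:**
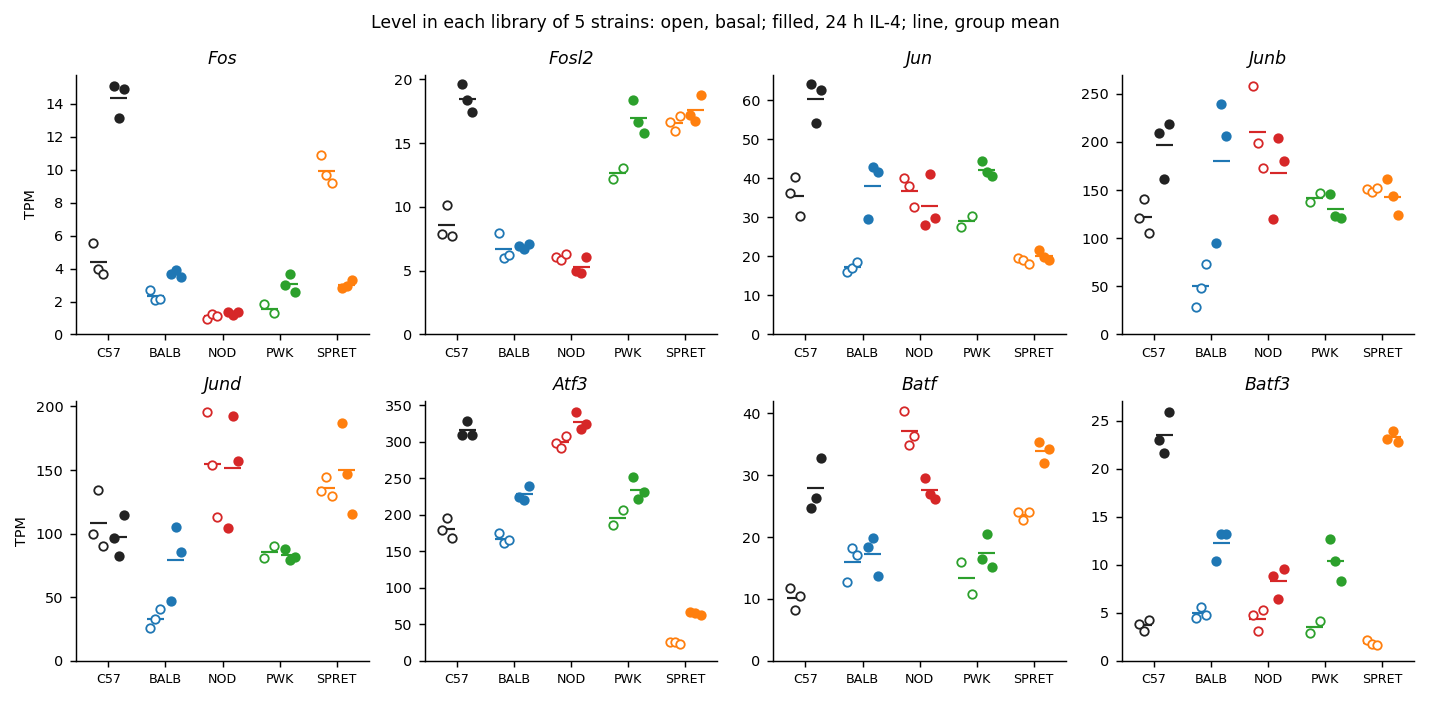
TPM of the 8 tested AP-1 genes in each of the 29 libraries of the 5 strains (one panel per gene, vertical axes from 0). Open points are basal, filled points are after 24 h of IL-4, and lines are group means. Fos rose in C57 and fell in SPRET, and Batf3 was higher with IL-4 in all 5 strains.

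Fos, the founding FOS member, moved in opposite directions. Its basal C57 libraries had 5.56, 3.99 and 3.70 TPM and the IL-4 libraries 15.1, 13.2 and 14.9 TPM. In SPRET the basal libraries had 10.9, 9.68 and 9.22 TPM and the IL-4 libraries 2.81, 2.96 and 3.29 TPM. In neither strain did the groups overlap. The log2 change was 1.52 ± 0.12 (SE) in C57 (adjusted p = 8.5e-11) and -1.44 ± 0.12 in SPRET (adjusted p = 2e-10). The difference between the responses was -2.96 ± 0.17 (adjusted p = 5.6e-13). BALB, from 2.08 to 2.71 TPM basally to 3.50 to 3.89 TPM, and PWK, from 1.29 and 1.85 TPM to 2.57 to 3.65 TPM, rose by under 2-fold (log2 0.51 and 0.66). Without replicate 2 in every group the BALB rise was 0.43 (adjusted p = 0.054). The PWK rise was then 0.41, with a single basal PWK library left. In NOD Fos stayed between 0.913 and 1.35 TPM in all 6 libraries (log2 0.12, adjusted p = 0.44).

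Fosl2 rose in C57 from 7.88, 10.2 and 7.68 TPM to 19.6, 18.4 and 17.4 TPM (log2 1.03 ± 0.10, adjusted p = 2.4e-09). Without replicate 1 this was 0.94, just under 2-fold. SPRET held 16.0 to 17.1 TPM without IL-4 and 16.7 to 18.8 TPM with it, near the level of treated C57. PWK started at 12.2 and 13.1 TPM and reached 15.8 to 18.3 TPM, a rise under 2-fold (log2 0.40, adjusted p = 0.0075). That rise had an adjusted p of 0.21 without replicate 1 and of 0.053 without replicate 2, at log2 0.29 and 0.45. BALB and NOD had 4.81 to 7.95 TPM in every library. The NOD change, -0.17 (adjusted p = 0.17), was a fall of -0.33 (adjusted p = 0.0034) after median-ratio scaling and of -0.35 (adjusted p = 0.0026) after quantile normalization.

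The JUN genes were called in BALB, where their basal levels were lower than in C57. Jun, the main AP-1 partner, had 16.1, 16.9 and 18.5 TPM in basal BALB and 29.7, 42.9 and 41.6 TPM with IL-4 (log2 1.09 ± 0.13, adjusted p = 2.6e-07). Junb went from 28.2, 48.6 and 73.1 TPM to 95.1, 240 and 207 TPM (log2 1.83 ± 0.28, adjusted p = 1.3e-05). Jund, usually a steadily expressed member, went from 25.6, 32.6 and 40.6 TPM to 46.8, 105 and 85.9 TPM (log2 1.19 ± 0.25, adjusted p = 0.0006). The groups did not overlap for any of the 3 genes, but BALB replicate 1 was lowest in both conditions for all of them. Without replicate 2, Jun (0.98) and Jund (0.96, adjusted p = 0.045) lay just under 2-fold. In C57 Jun rose from 30.3 to 40.2 TPM to 54.3 to 64.2 TPM, under 2-fold (log2 0.75, adjusted p = 3.6e-05). Junb in C57 went from 105 to 140 TPM to 162 to 219 TPM (log2 0.68 ± 0.28, adjusted p = 0.059; 0.62 and adjusted p = 0.017 without replicate 1). In PWK Jun rose by 0.53 (adjusted p = 0.0075), and by 0.42 with adjusted p = 0.11 without replicate 1. Jun in SPRET stayed at 18.2 to 21.6 TPM in all 6 libraries.

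Atf3 was called in SPRET, which had the lowest basal level. SPRET basal libraries held 25.9, 25.2 and 23.3 TPM and the IL-4 libraries 67.4, 66.1 and 62.6 TPM (log2 1.36 ± 0.06, adjusted p = 5.5e-16). Treated SPRET was still below every basal library of the other strains, of which the lowest had 161 TPM. The rise was under 2-fold in C57, from 168 to 196 TPM to 309 to 329 TPM (log2 0.80, adjusted p = 3e-11), in BALB (log2 0.45, adjusted p = 1.8e-06) and in PWK (log2 0.26, adjusted p = 0.0051). The PWK rise was 0.13 (adjusted p = 0.36) without replicate 1. NOD had 292 to 309 TPM basally and 318 to 341 TPM with IL-4 (log2 0.13, adjusted p = 0.09). After quantile normalization this was 0.17 (adjusted p = 0.034). Atf3 levels were thus higher with IL-4, without overlap, in each strain.

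Batf3, best known for its part in dendritic cell development, was the only member whose rise had an adjusted p under 0.05 in every strain. It went from 3.85, 3.07 and 4.20 TPM to 23.1, 21.6 and 25.9 TPM in C57, and from 2.16, 1.73 and 1.67 TPM to 23.1, 23.9 and 22.8 TPM in SPRET. The log2 changes were 2.38 ± 0.16 (adjusted p = 4.8e-12) and 3.09 ± 0.16 (adjusted p = 2.1e-14). BALB rose from 4.48 to 5.57 TPM to 10.4 to 13.3 TPM (log2 1.16), and PWK from 2.86 and 4.17 TPM to 8.30 to 12.7 TPM (log2 1.34, and 0.99 without replicate 1). NOD rose from 3.11 to 5.25 TPM to 6.45 to 9.59 TPM, under 2-fold (log2 0.79, adjusted p = 0.00044). Treated C57 and SPRET libraries thus lay above all treated libraries of BALB, PWK and NOD. The PWK range overlapped those of BALB and NOD. Dendritic cell markers summed to at most 1.68 TPM in these 29 libraries. In SPRET the sum went from 0.75 to 0.87 TPM to 1.43 to 1.68 TPM with IL-4. It was also higher with IL-4 in NOD, while the groups overlapped in C57, BALB and PWK. The part of these markers in the Batf3 rise was not tested.

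Batf rose in C57 from 11.8, 8.16 and 10.4 TPM to 24.6, 26.3 and 32.8 TPM (log2 1.38 ± 0.15, adjusted p = 4.1e-08). SPRET rose from 22.8 to 24.1 TPM to 32.0 to 35.3 TPM, under 2-fold (log2 0.50, adjusted p = 0.0083). This rise did not pass when libraries were rescaled by median ratios (0.36, adjusted p = 0.089) or by quantiles (0.35, adjusted p = 0.11). In NOD Batf fell, from 40.4, 35.0 and 36.3 TPM to 29.5, 27.0 and 26.2 TPM (log2 -0.42, adjusted p = 0.033). The adjusted p of that fall was 0.099 without replicate 1 and 0.14 without replicate 3, at -0.41 and -0.40.

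**Figure D2:**
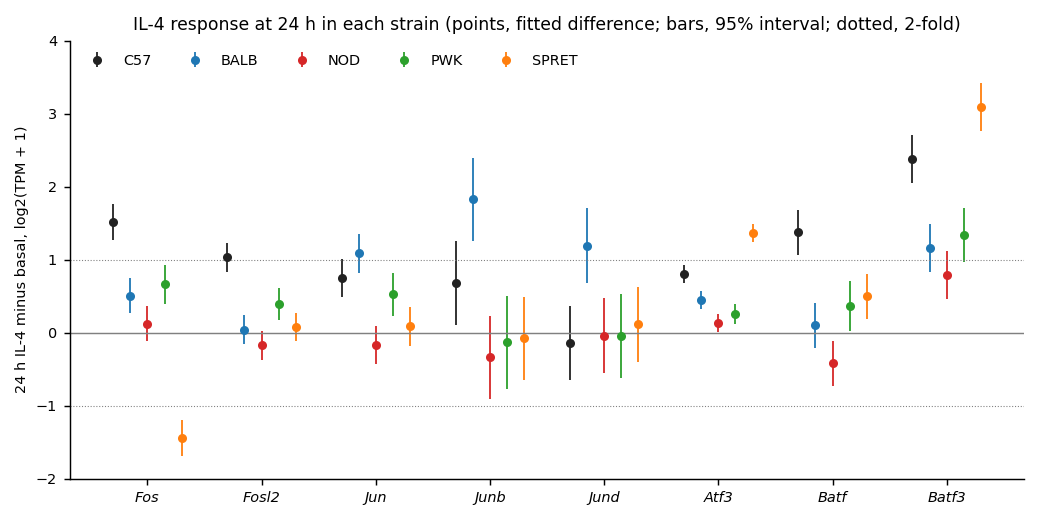
Fitted difference between 24 h IL-4 and basal on the log2(TPM + 1) scale for each gene and strain, with 95% intervals from the limma fit. Dotted lines mark 2-fold. Fos lies at 1.52 in C57 and at -1.44 in SPRET, and Batf3 lies above 0 in all 5 strains.

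Testing the responses against that of C57 gave calls in all 4 other strains. For BALB 5 of 8 genes were called, against 1.49% of all genes. Fos, Batf and Batf3 responded less than in C57, by -1.01, -1.28 and -1.23 on the log2 scale, and Junb and Jund responded more, by 1.15 and 1.33. Without replicate 2 the Junb and Jund differences were 0.69 (adjusted p = 0.52) and 0.82 (adjusted p = 0.33). Without replicate 3 the Junb difference was 1.51 (adjusted p = 0.055), and those of Fos and Batf were -0.90 and -0.99, just under 2-fold. Fosl2, at -0.99, was over 2-fold without replicate 2 (-1.16) or replicate 3 (-1.02).

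For NOD 5 of 8 were called, all lower (background 2.47%). These were Fos (-1.39), Fosl2 (-1.20), Junb (-1.02), Batf (-1.80) and Batf3 (-1.59). The Junb difference (adjusted p = 0.048) did not pass without any of the 3 replicates in turn, with -0.58, -1.44 and -1.03 and adjusted p = 0.12, 0.067 and 0.14. Jun in NOD, at -0.92 and not called, was -1.23 without replicate 2. For PWK 2 of 8 were called, Batf (-1.01) and Batf3 (-1.04), against 2.26% of all genes. The Batf3 difference was -0.79 (adjusted p = 0.064) without replicate 2 and -0.91 without replicate 3. The Batf difference was -0.92 without replicate 1 and -0.83 without replicate 3, under 2-fold. Fos in PWK, at -0.85 and not called, was -1.12 without replicate 2 and -0.64 (adjusted p = 0.057) without replicate 3. For SPRET 1 of 8 was called, Fos (background 3.45%). Under 2-fold, Fosl2 (-0.95), Jun (-0.67) and Batf (-0.88) responded less in SPRET, and Atf3 (0.56) and Batf3 (0.71) more. The Jun difference was -0.52 (adjusted p = 0.11) without replicate 3, while Fosl2 without replicate 2 (-1.07) and Batf without replicate 1 (-1.09) were over 2-fold. The Batf3 difference (adjusted p = 0.017) had an adjusted p of 0.062 without replicate 1, 0.096 without replicate 3, 0.13 after median-ratio scaling and 0.18 after quantile normalization. All 4 of these comparisons share the C57 libraries.

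Strains also differed before IL-4. Against basal C57, BALB had 2 of 8 genes called (background 4.81%), Junb (log2 -1.37 ± 0.28, adjusted p = 0.00025) and Jund (-1.69 ± 0.25, adjusted p = 4.3e-06). Basal Jund was 99.7, 134 and 90.6 TPM in C57 and did not overlap with BALB. Jun in BALB was lower by a similar amount (-0.999, adjusted p = 5e-07), and by -1.16 without replicate 3. SPRET had 3 of 8 called (background 18.1%). Atf3 was lower (-2.82 ± 0.06, adjusted p = 3e-23), and Fos (1.03) and Batf (1.16) were higher. NOD had 2 of 8 (background 16.9%), with Fos lower (-1.35) and Batf higher (1.79), and PWK had 1 of 8 (background 13.3%), Fos (-1.07). With 8 genes, the PWK count was near the share of all genes and the NOD count not far above it. Fos was just under 2-fold in PWK without replicate 2 (-0.96) and in SPRET without replicate 2 (0.99) or replicate 3 (0.98). The median of all genes was itself shifted by -0.30 in NOD and by -0.16 in PWK. Under 2-fold, Atf3 (0.73) and Junb (0.77) were higher in NOD, and Fosl2 was higher in SPRET (0.88, and 1.03 without replicate 2) and PWK (0.52). Fosl2 was lower in NOD by 0.43, but by 0.11 (adjusted p = 0.21) after median-ratio scaling and by 0.09 (adjusted p = 0.34) after quantile normalization. After median-ratio scaling NOD was also higher than C57 in Jund (0.85, adjusted p = 0.007), Jun (0.40, adjusted p = 0.014) and Batf3 (0.47, adjusted p = 0.016), and PWK in Atf3 (0.29, adjusted p = 0.00052) and Batf (0.52, adjusted p = 0.017). Of these, Batf3 (0.57), Atf3 (0.15) and Batf (0.55) also passed after quantile normalization. Atf3 in BALB was lower after median-ratio scaling alone (-0.16, adjusted p = 0.034). Fosl2 in BALB (-0.31) had an adjusted p of 0.43 at -0.12 without replicate 2, and Batf in BALB (0.61) had 0.066 at 0.38.

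Over the 29 libraries some members varied together. Pearson's r of log2(TPM + 1) was 0.83 for Junb and Jund, 0.69 for Jun and Atf3, 0.65 for Fos and Fosl2 and 0.61 for Jun and Junb. These libraries share strains and treatment, so the values are descriptions. Outside the family, the genes with the pattern most like Batf3 were Il4i1, an IL-4-induced amino acid oxidase (r = 0.961), and Gm21948 (0.950). The closest to Atf3 were Tapbp and Ctsz (both 0.964), and to Fosl2 Rara (0.935), a retinoic acid receptor, and Pop4 (0.934). For Fos they were Hfe (0.907) and Nxpe5 (0.891), for Jun Bcl2a1b (0.903) and Adam8 (0.877), for Batf Slc7a5 (0.898) and Yars (0.893), for Jund Uqcrq (0.909) and Sf3a2 (0.897), and for Junb Apba3 (0.857) and Sf3a2 (0.829).

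The time course asked when each gene moved. Fosl2 had its highest level at 1 hour in both strains, whereas Jun and Atf3 were highest at 24 hours in both. In C57, 2 of 8 genes were called at 1 hour, Fosl2 and Batf3 (background 0.877%). At 6 hours 1 of 8 was called, Batf3 (background 2.13%), and at 24 hours 3 of 8, Jun, Atf3 and Batf3 (background 5.76%). In SPRET 3 of 8 were called at 1 hour (background 1.89%) and 3 of 8 at 6 hours (background 4.57%), in each case Atf3 and Batf3 higher and Fos lower. At 24 hours 3 of 8 were called, all higher, namely Jun, Atf3 and Batf3 (background 5.62%).

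**Figure D3:**
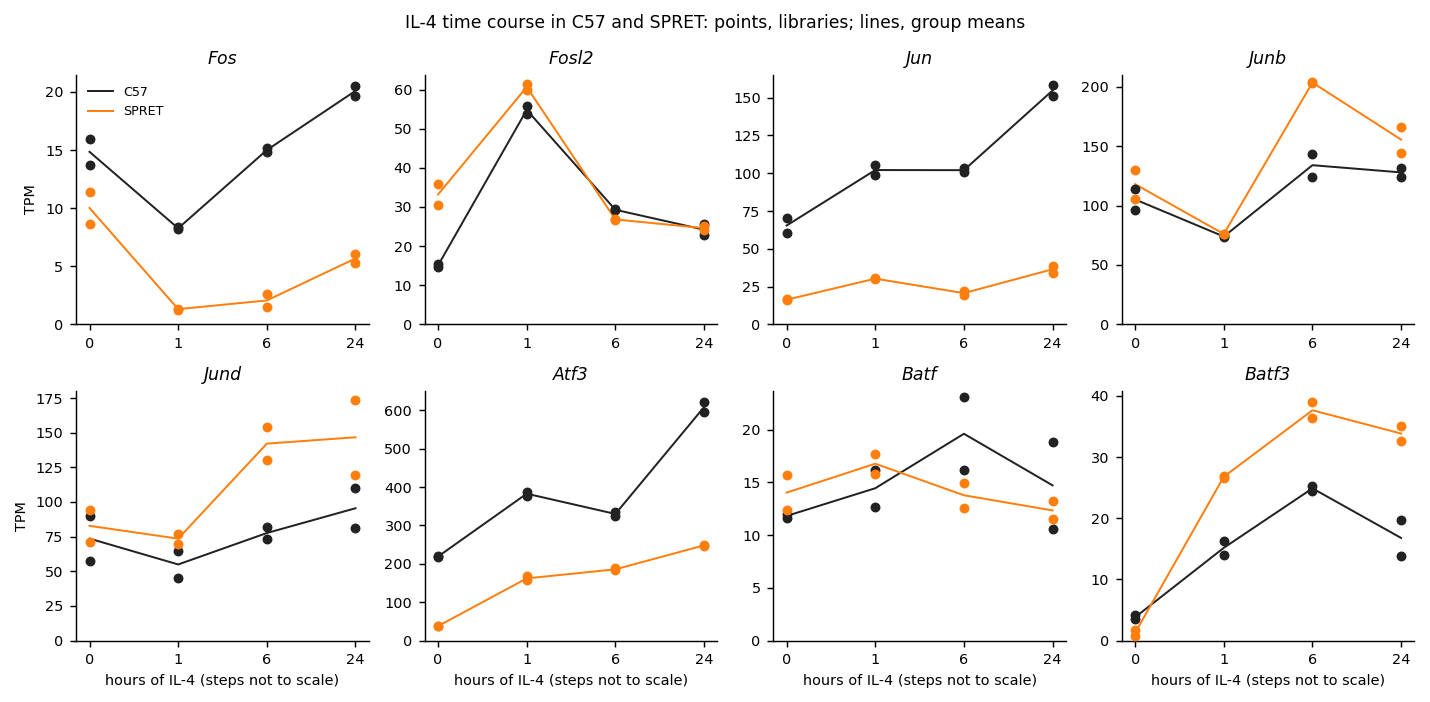
TPM of the 8 genes at 0, 1, 6 and 24 h of IL-4 in C57 (black) and SPRET (orange). Points are the 2 libraries per time and lines join group means. Fosl2 peaked at 1 h in both strains, and Fos in SPRET was lowest at 1 h.

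Fosl2 in C57 went from 15.4 and 14.8 TPM to 55.8 and 53.7 TPM at 1 hour, 29.4 and 29.2 TPM at 6 hours and 22.8 and 25.5 TPM at 24 hours. The log2 changes were 1.79 ± 0.08 (adjusted p = 2.5e-08), 0.91 and 0.65. In SPRET it went from 30.5 and 35.9 TPM to 59.8 and 61.5 TPM, then to 27.0 and 26.6 TPM and to 25.1 and 24.1 TPM. There the log2 change was 0.86 at 1 hour, -0.29 at 6 hours and -0.41 at 24 hours. The fall at 6 hours did not pass without the second 6-hour library (-0.28, adjusted p = 0.057) or the second basal library (-0.18, adjusted p = 0.1).

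Fos fell at 1 hour. In SPRET it went from 8.61 and 11.4 TPM to 1.35 and 1.27 TPM, then 2.59 and 1.53 TPM and then 5.30 and 6.04 TPM. The log2 changes were -2.24 ± 0.16 (adjusted p = 6.5e-07), -1.86 and -0.71, so the fall at 24 hours was under 2-fold. In C57 it went from 13.7 and 16.0 TPM to 8.19 and 8.35 TPM at 1 hour (log2 -0.77, adjusted p = 0.013), with 15.2 and 14.8 TPM at 6 hours and 19.6 and 20.5 TPM at 24 hours. Without either 1-hour library or the second basal library the C57 fall had an adjusted p of 0.093, 0.076 and 0.15, at -0.76, -0.78 and -0.67. The 24-hour rise of Fos in C57 was 0.42 here (adjusted p = 0.051), against 1.52 in the strain table, where basal C57 had 3.70 to 5.56 TPM.

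Batf3 was quick in both strains. In C57 it went from 3.51 and 4.12 TPM to 14.0 and 16.3 TPM at 1 hour, 24.5 and 25.3 TPM at 6 hours and 19.7 and 13.9 TPM at 24 hours. In SPRET it went from 1.78 and 0.787 TPM to 26.6 and 26.9 TPM, 36.4 and 38.9 TPM and 32.7 and 35.0 TPM. The SPRET log2 changes were 3.64, 4.12 and 3.97, and those of C57 were 1.75, 2.43 and 1.87.

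Atf3 in C57 went from 218 and 220 TPM to 377 and 388 TPM, 324 and 336 TPM and 594 and 622 TPM. In SPRET it went from 38.3 and 37.0 TPM to 157 and 167 TPM, 183 and 188 TPM and 246 and 249 TPM. SPRET libraries were below the C57 libraries of the same time throughout. The log2 changes were 0.80, 0.59 and 1.47 in C57 and 2.08, 2.27 and 2.69 in SPRET.

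Jun in C57 went from 60.7 and 70.0 TPM to 99.1 and 105 TPM at 1 hour, 104 and 100 TPM at 6 hours and 158 and 151 TPM at 24 hours. SPRET had 16.5 and 16.1 TPM, then 29.9 and 30.6 TPM, 21.8 and 19.5 TPM and 34.1 and 38.8 TPM. At 24 hours the log2 changes were 1.23 and 1.11. The SPRET rise at 6 hours (0.32) was 0.24 (adjusted p = 0.083) without the first 6-hour library. Junb dipped first, by -0.50 in C57 and by -0.62 in SPRET at 1 hour, and then was higher at 6 hours, by 0.35 and 0.79. In C57 the dip did not pass without either 1-hour library (-0.48, adjusted p = 0.12; -0.51, adjusted p = 0.096) or the second basal library (-0.37, adjusted p = 0.22). The C57 rise at 6 hours did not pass without the first 6-hour (0.24, adjusted p = 0.22) or first basal library (0.22, adjusted p = 0.26). At 24 hours Junb was higher in SPRET by 0.40 (adjusted p = 0.011), with 0.30 (adjusted p = 0.11) without the second 24-hour and 0.25 (adjusted p = 0.12) without the second basal library. Jund changed in SPRET alone by this test, by 0.78 at 6 hours and 0.81 at 24 hours. The difference from C57 did not pass (0.67, adjusted p = 0.28; 0.42, adjusted p = 0.41). Without the second basal SPRET library the SPRET changes at 6 and 24 hours were 0.58 (adjusted p = 0.19) and 0.60 (adjusted p = 0.16). Without the first or second 6-hour SPRET library the 6-hour change was 0.90 (adjusted p = 0.054) and 0.66 (adjusted p = 0.16), and without the second 24-hour library the 24-hour change was 0.54 (adjusted p = 0.19). Without the first 24-hour or first basal library the 24-hour value was over 2-fold (1.08 and 1.01). Batf had no adjusted p under 0.05 at any time with all libraries and settings as stated. In C57 its 6-hour change of 0.67 (adjusted p = 0.059) passed without the second 6-hour library (0.91, adjusted p = 0.041), with a 5 TPM filter (adjusted p = 0.045) and with the replicate number as a block (adjusted p = 0.016). Its 24-hour change of 0.24 was 0.63 (adjusted p = 0.041) without the second 24-hour library.

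The SPRET response differed from that of C57 for 3 of 8 genes at 1 hour (background 0.811%), 4 of 8 at 6 hours (background 2.40%) and 4 of 8 at 24 hours (background 6.22%). Fos was called lower at all 3 times (-1.47, -1.88 and -1.13). Atf3 (1.27, 1.68 and 1.22) and Batf3 (1.89, 1.69 and 2.10) were called higher at all 3 times. Fosl2 was called lower at 6 and 24 hours (-1.21 and -1.06) and lay just under 2-fold at 1 hour (-0.94, adjusted p = 0.00039; -1.05 without the first basal SPRET library). At 24 hours Fosl2 was -0.98 without the second 24-hour C57 library, and without the second basal SPRET library Fosl2 was -0.94 and Fos -0.95. In the strain table, from other libraries, the 24-hour differences were -2.96 for Fos, 0.56 for Atf3, 0.71 for Batf3 and -0.95 for Fosl2.

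The Egr2 time course asked whether loss of EGR2, a zinc finger factor induced by IL-4, altered these genes. Egr2 itself was 23.6 and 21.3 TPM in basal Egr2WT and 0.859 and 0.854 TPM in basal Egr2MKO. With IL-4 it was 75.6 to 101 TPM in Egr2WT and 3.10 to 7.05 TPM in Egr2MKO. The libraries thus carried the loss that their labels give. No AP-1 gene differed by over 2-fold between genotypes, with 0 of 8 called by limma at 0, 1, 6 and 24 hours (background 0.853%, 1.06%, 2.30% and 4.55%). At an unadjusted p under 0.05 there were 4, 3, 5 and 3 of 8, each under 2-fold. At an adjusted p under 0.05 and any fold there were 1, 1, 3 and 3 of 8 genes, all lower in Egr2MKO, where 11.5%, 11.4%, 20.6% and 37.4% of all genes passed in either direction.

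**Figure D4:**
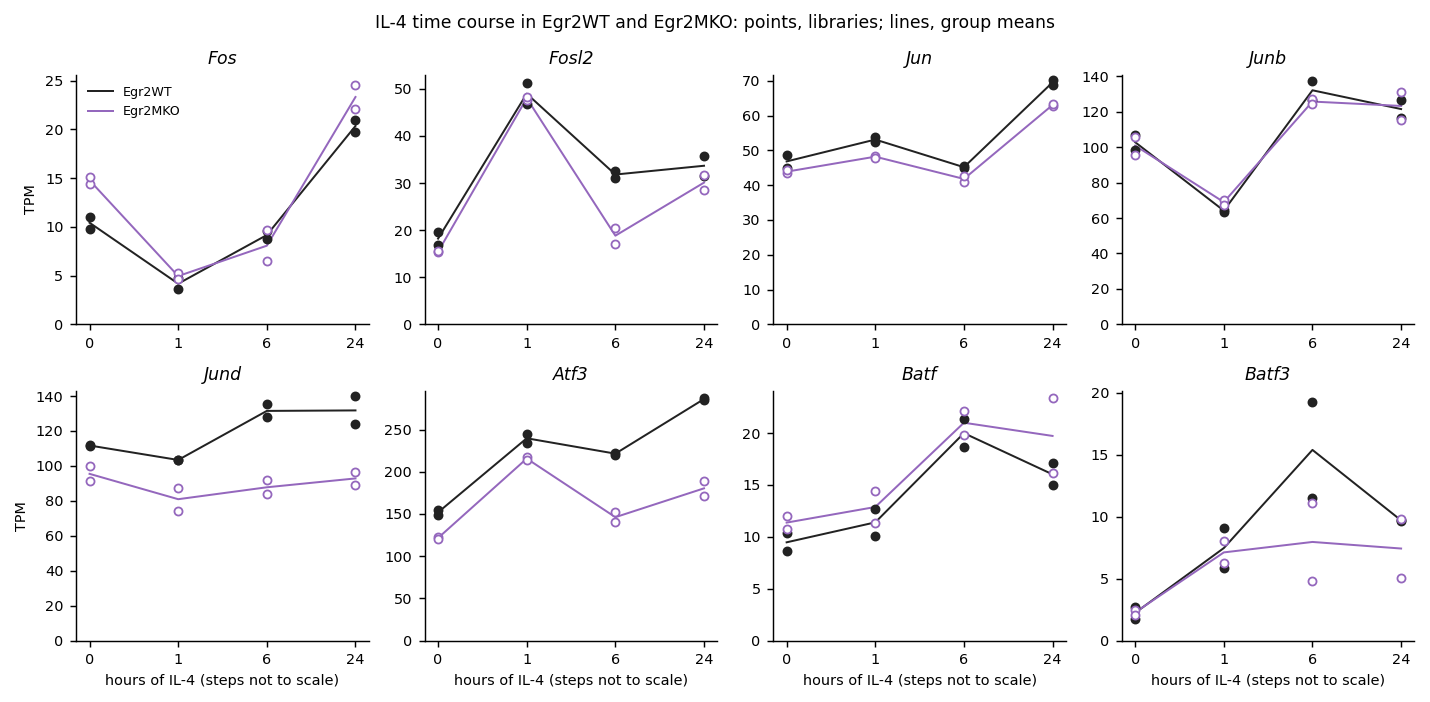
TPM of the 8 genes at 0, 1, 6 and 24 h of IL-4 in Egr2WT (black, filled) and Egr2MKO (purple, open). Points are the 2 libraries per time and lines join group means. Atf3 and Jund lie lower in Egr2MKO at 6 and 24 h, and the Fosl2 curves separate at 6 h.

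Atf3 and Jund each had a lower mean in Egr2MKO at all 4 times, of which 3 passed the test (any fold) for each gene. The counts of the 8 genes that passed at 0, 1 and 24 hours (1, 1 and 3) were near the share of all genes (11.5%, 11.4% and 37.4%). For Atf3 the Egr2WT libraries had 149 and 155 TPM basally, 245 and 234 TPM at 1 hour, 223 and 220 TPM at 6 hours and 288 and 285 TPM at 24 hours. Egr2MKO had 122 and 121 TPM, 218 and 214 TPM, 152 and 140 TPM and 172 and 189 TPM. The log2 differences were -0.32 (adjusted p = 0.0014), -0.15 (adjusted p = 0.081; 0.046 after median-ratio scaling and 0.045 after quantile normalization), -0.60 (adjusted p = 8.4e-06) and -0.66 (adjusted p = 9.2e-07). Jund was lower at 1 hour (-0.35), 6 hours (-0.58) and 24 hours (-0.50, adjusted p = 0.00054). At 24 hours Jund had 140 and 124 TPM in Egr2WT and 96.7 and 88.9 TPM in Egr2MKO.

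Fosl2 was lower at 6 hours, with 31.1 and 32.5 TPM in Egr2WT and 20.5 and 17.1 TPM in Egr2MKO (log2 -0.73 ± 0.10, adjusted p = 0.00027). With only the compared groups in the model, the adjusted p at 6 hours was 0.082 for Fosl2 and 0.056 for Jund. At 1 hour it had 46.7 to 51.2 TPM in all 4 libraries. Jun was lower at 24 hours by 0.14 on the log2 scale (adjusted p = 0.036), which did not pass without any of its 4 libraries in turn (adjusted p = 0.084 to 0.17). The 1-hour Jund difference was -0.24 (adjusted p = 0.17) without the second Egr2MKO library, and its adjusted p was 0.086 and 0.083 without the first and second Egr2WT library. Batf3 at 6 hours had 11.5 and 19.3 TPM in Egr2WT and 11.1 and 4.80 TPM in Egr2MKO (log2 -0.93, adjusted p = 0.099). Without the first Egr2MKO library it was -1.46 (adjusted p = 0.016), the only call over 2-fold among the left-out fits of the genotype comparison. Without that library Fos at 6 hours was -0.44 (adjusted p = 0.042), against -0.18 (adjusted p = 0.44) with it.

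The IL-4 response was then tested within each genotype. At 1 hour 2 of 8 genes were called in each genotype, Fosl2 higher and Fos lower (background 0.778% in Egr2WT and 0.902% in Egr2MKO). Fosl2 rose by 1.38 and 1.58 and Fos fell by 1.15 and 1.41 on the log2 scale. Without the first 1-hour library the Egr2WT fall of Fos was -0.99. Batf3 was also higher at 1 hour in both genotypes, without a call. It went from 1.74 to 2.74 TPM to 5.88 to 9.06 TPM in Egr2WT. In Egr2MKO it went from 2.05 to 2.50 TPM to 6.23 to 8.01 TPM (log2 1.31, limma adjusted p = 0.089). Junb dipped at 1 hour in both (-0.67 and -0.54), and Atf3 rose at 1, 6 and 24 hours in both, by 0.65, 0.54 and 0.91 in Egr2WT and by 0.82, 0.26 and 0.56 in Egr2MKO, all under 2-fold. At 6 hours Egr2WT had 2 of 8 called, Batf (1.01) and Batf3 (2.31; background 2.86%), and Egr2MKO 1 of 8, Batf3 (1.36; background 3.70%). The Batf call in Egr2WT was 0.91 without the second 6-hour and 0.89 without the second basal library, under 2-fold. At 24 hours each had 1 of 8 called, Batf3, with 1.74 in Egr2WT (background 4.35%) and 1.31 in Egr2MKO (background 4.83%). In Egr2MKO the Batf3 calls did not pass without the first 6-hour library (0.83, adjusted p = 0.11) or the second 24-hour library (0.88, adjusted p = 0.17). They also did not pass without the second basal library (1.26 and 1.21, adjusted p = 0.092 and 0.11), nor at 24 hours without the first (1.41, adjusted p = 0.058).

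The test of the difference between these responses called 0 of 8 genes at 1, 6 and 24 hours (background 0.00828%, 0.207% and 1.90%). At an unadjusted p under 0.05 there were 1, 4 and 2 of 8. At an adjusted p under 0.05 and any fold, 0.0166%, 1.10% and 12.6% of all genes passed. Among the 8 genes this was met by Atf3 at 24 hours, whose rise was smaller in Egr2MKO by 0.35 on the log2 scale (adjusted p = 0.0076). Without the first 6-hour Egr2MKO library, the 6-hour difference also passed for Fos (-0.90, adjusted p = 0.023), Fosl2 (-0.64, adjusted p = 0.026) and Atf3 (-0.33, adjusted p = 0.029).

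In F1 cells both parental alleles share a nucleus, so the allele ratio was set beside the ratio of the parental strains. With 2 libraries per condition and allele-weighted values of unknown depth, no test was made. In C57 x SPRET, 0 entries were over 2-fold apart in both libraries. The share over all genes was not computed, so whether this count is unusual for the cross is not known. Atf3 showed the widest gap between parents and alleles. The C57 allele had 153 and 164 TPM and the SPRET allele 190 and 199 TPM at baseline, a log2 ratio of C57 over SPRET of -0.30, where the parental ratio was 2.82. After IL-4 the C57 allele had 247 and 244 TPM and the SPRET allele 284 and 300 TPM (-0.25, parental 2.26). The SPRET allele was the higher of the pair in all 4 libraries.

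**Figure D5:**
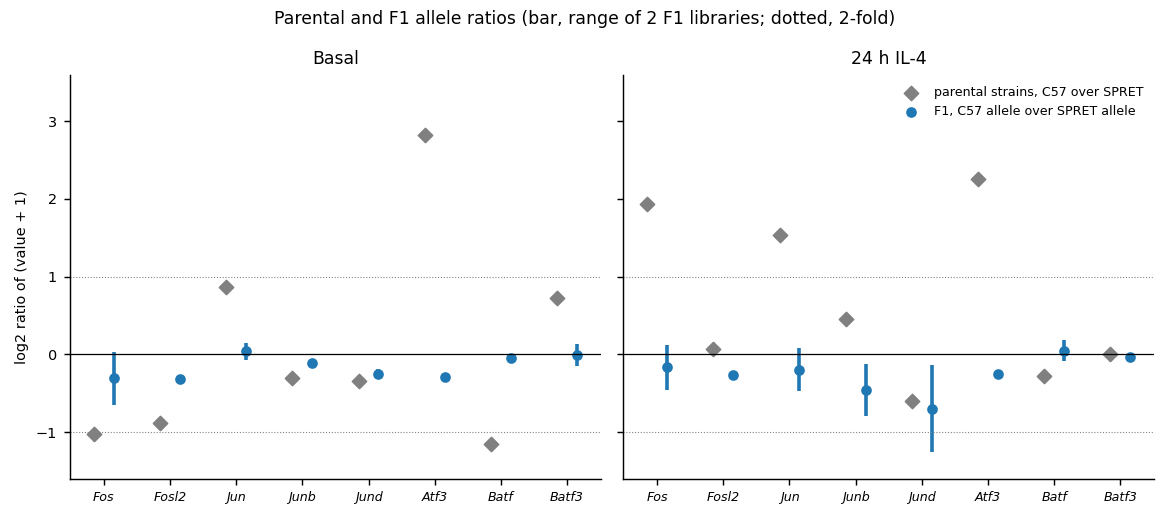
Log2 ratio of C57 over SPRET in the parental strains (grey diamonds) and between alleles of C57 x SPRET F1 cells (blue, mean with the range of 2 libraries), computed on value + 1. Parental Atf3 lies at 2.82 basally and at 2.26 with IL-4, while its allele ratios lie at -0.30 and -0.25.

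Fos and Jun showed the same kind of contrast. The Fos allele ratio was -0.31 basally and -0.17 with IL-4, against -1.03 and 1.94 in the parents. With IL-4 the C57 allele of Fos had 32.1 and 38.7 TPM and the SPRET allele 29.4 and 53.3 TPM. The Jun ratio was 0.04 and -0.20, against 0.87 and 1.53. Batf had -0.05 and 0.05, against -1.16 and -0.28. Batf3 alleles were close in every library, at 1.08 to 2.31 TPM basally and 33.3 to 35.5 TPM with IL-4. For Jund with IL-4 the second library had 317 TPM for the C57 and 759 TPM for the SPRET allele, and the first 286 and 315 TPM. Allele columns were scaled separately and on another gene length, so their levels are not set against the other tables.

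The C57 x NOD columns were sparse, with 78.9% to 83.6% of genes listed at 0. Of the 10 genes, 6 were at 0 in every column (Fos, Fosb, Fosl1, Fosl2, Atf3 and Batf), which says nothing of their expression. Jun had 208 and 217 TPM from the C57 allele and 128 and 134 TPM from the NOD allele with IL-4 (log2 0.69, parental 0.87), and -0.15 basally. The Junb ratio was -0.14 basally, and -0.42 and 0.49 in the 2 IL-4 libraries. Batf3 with IL-4 was listed at 0 from the C57 allele and at 78.4 and 45.6 TPM from the NOD allele. Basally it was listed at 5.71 and 6.00 TPM in the first library and at 0 in the second. No fold is given against columns at 0.

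Genes around AP-1 were read from fixed lists. Among the 10 dimer partners, 3 were called in C57 after 24 hours, all higher (all genes 3.80%). They included Jdp2 (log2 1.52) and Atf4 (1.35). The median of the 10 listed partners was -0.04, as was that of all genes. In basal NOD 4 of the 10 were called higher than in C57 and 2 lower (all genes 16.9%), with Atf4 higher by 2.20. In Egr2MKO at 24 hours 2 of the 10 were called higher than in Egr2WT (all genes 4.55%), among them Maf (1.74).

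Upstream of AP-1, 14 MAP kinases and serum response or ternary complex factors were listed. For the 24-hour response 0 of 14 were called in each of the 5 strains, where 1.19% to 3.94% of all genes were. A count of 0 is near that share. Of 7 MAP kinase phosphatases, which switch those kinases off, 3 were called in SPRET, with Dusp4 (2.15) and Dusp10 (1.29) higher and Dusp1 (-1.40) lower, against 3.94% of all genes. In the other 4 strains 0 of the 7 were called (all genes 1.19% to 3.80%). In basal NOD all 7 were called against C57, 6 higher and 1 lower (all genes 16.9%), with a list median of 1.84 beside -0.30 for all genes. Basal Dusp4 was 589 TPM in NOD and 33.7 TPM in C57. At 1 hour Dusp4 rose by 1.64 in C57 and by 3.03 in SPRET, and Dusp1 fell by 1.52 and 1.87.

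Of the other immediate-early genes, Egr2 was called higher at 24 hours in C57 (1.97), BALB (1.08), PWK (2.01) and SPRET (4.09). Ier3 (1.24) was the other call among 9 genes tested in C57 (all genes 3.80%). At 1 hour Btg2 fell by 1.49 in C57 and by 1.94 in SPRET, while Ier3 and Egr2 rose.

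Among 14 AP-1 target genes, 5 were called in C57 at 24 hours, 4 higher and 1 lower (all genes 3.80%), and the list median was 0.58. The collagenase gene Mmp13 rose by 3.54 and Timp1, an inhibitor of such proteases, by 2.34, whereas the heme oxygenase gene Hmox1 fell by 1.58. SPRET had 3 higher and 3 lower (all genes 3.94%), with Mmp12 higher by 4.76 and Il1b lower by 2.08. NOD had 3 higher and 2 lower (all genes 1.19%), and BALB and PWK 3 higher and 1 lower each (all genes 2.08% in both). Mmp12 was lower in Egr2MKO at every time, with log2 differences of -2.28 to -2.53.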

How the data were processed

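RNA was polyA-selected and sequenced from BMDMs of inbred, Egr2-deleted and F1 mice. The authors mapped reads to each strain's genome with STAR 2.5.3, moved the alignments to mm10 coordinates using MMARGE 1.0, and quantified TPM in HOMER 4.11.1. The deposited values are TPM without read counts, so no count model was run. The F1 tables hold allele-weighted TPM, each allele column scaled on its own, and their depth is not known. Columns of the authors' own DESeq2 comparisons (fold changes and p-values) and the table of human cells were not used.

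Groups came from the sample labels. Each of the 3 tables was fitted on its own with limma 3.58.1 (R 4.3.3), on log2(TPM + 1), with a mean per group, a trended prior, for genes that reached 1 TPM in 2 or more libraries (11907, 12088 and 12079 genes). A call needed over 2-fold and an adjusted p under 0.05 (Benjamini-Hochberg). The study calls the libraries biological replicates, but nothing ties each to a separate mouse, so p-values measure the spread between these libraries. TPM give no counting interval, and lower tag totals give less precise values. The script was tested on simulated data. The members, the lists and the likeness rule were chosen with earlier results of these data known. All 10 members were named; of each list, at most the 4 called genes with the largest change were eligible; and for each tested member, the 2 genes with the highest Pearson r. Alternatives were other pseudocounts (0.1 and 5), filters and scalings, fewer groups in the model, a robust prior, a replicate block and left-out libraries. Leaving out single libraries of the 2-replicate tables was added after the data were seen; the lone library left was then assumed to vary like the other groups. PWK had 2 basal libraries. For the dimer partner list, 1 gene is not reported here.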

Additional observations from a re-analysis of the deposited data

Results flagged for a closer look

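These results stand out because the response to IL-4 differed from that of C57 by over 2-fold in the limma interaction test. The cause of each was not tested. At 24 hours the difference from C57 (log2) was -1.012 for Fos, 1.149 for Junb, 1.329 for Jund, -1.279 for Batf and -1.228 for Batf3 in BALB. In NOD it was -1.394 for Fos, -1.204 for Fosl2, -1.017 for Junb, -1.797 for Batf and -1.59 for Batf3. In PWK it was -1.012 for Batf and -1.045 for Batf3, and in SPRET -2.962 for Fos.

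In the time course, the SPRET minus C57 difference of Fos was -1.472 at 1 hour, -1.876 at 6 hours and -1.13 at 24 hours. For Atf3 it was 1.273, 1.683 and 1.219, and for Batf3 1.893, 1.686 and 2.098. For Fosl2 it was -1.208 at 6 hours and -1.06 at 24 hours. No group held the 4 libraries that a check for single stray libraries needs.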

How the results depend on the processing

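No tested change reversed its direction under an alternative where either fit gave an adjusted p under 0.05. The only F1 entry over 2-fold apart in both libraries was Batf3 in C57 x NOD with IL-4. Its C57 allele is listed at 0, so no alternative could have reversed its direction. Weaker values could change sign. The basal Fos allele ratio in C57 x SPRET (-0.31) ran from -0.65 to 0.03 over its libraries. With a pseudocount of 5 TPM, which damps low genes, calls fell from 12 to 7 for the 24-hour response of the 5 strains, from 8 to 4 for basal levels, from 13 to 7 for response differences and from 9 to 4 for the Egr2 time course. Leaving out libraries gave 10 to 12, 7 to 8, 8 to 13 and 7 to 11 calls for these, 15 to 16 (main value 15) for the C57 and SPRET time course, 9 to 12 (11) for its response differences, 0 to 1 (0) between genotypes, 0 throughout for the genotype response differences, and 1 to 2 (0) and 1 to 1 (1) for the C57 x SPRET and C57 x NOD alleles. The C57 x NOD entry is Batf3, counted on value + 1 although its C57 allele is listed at 0. With single F1 libraries, agreement of both libraries is no longer required. Of all values under alternatives, 3652 kept their side of the threshold or moved within the spread, 119 lost it, 59 gained it and 10 moved. The 3652 include F1 values with a library left out, which fall within that spread by arithmetic and so could not move. The deviations of same-numbered libraries had a mean r of 0.013, 0.030 and -0.0046 in the 3 tables. Of 126, 56 and 56 such pairs, 9, 6 and 0 were over 0.1, and the highest r was 0.33, 0.27 and 0.057. These pairs join any 2 groups, also of different strains or genotypes. The mean therefore cannot decide on pairing within a strain or genotype. The main fits did not take the numbers as pairs. With the replicate number as a block the counts were 12, 8, 13, 15, 11, 0, 9 and 0, as without it, and 3 changes under 2-fold gained an adjusted p under 0.05 (Batf in C57 at 6 hours, Jund in Egr2WT at 6 and 24 hours). The median change of all genes shifted by over 0.1 in several comparisons, most in basal NOD (-0.30), and scaling removed it. No counting error can be given, since TPM carry no read counts. With only the compared groups in the model, several changes in the 2-replicate tables lost an adjusted p under 0.05. An example is the 1-hour fall of Fos in Egr2WT (adjusted p = 0.070) and in C57 (0.067). A few gained it, such as Batf3 in Egr2MKO at 1 hour (0.029). The causes of lost calls were not tested, apart from the smaller number of libraries where libraries were left out.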
